A study of Homo sapiens with 24 samples.

Results

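Levels of 10 genes for chemokines and inflammatory mediators were described in ARPE-19 cells, a spontaneously arising human retinal pigment epithelium (RPE) line. The genes were CXCL8, CXCL1, CXCL2, CXCL3, CXCL12, CCL2, CCL7, IL6, IL1B and PTX3, taken by name from the 60623 genes of the count table. Of these, 9 had at least 10 counts over the 24 libraries and were tested among 24873 such genes, and CXCL12 had 0 counts in every library. The study asked how the level of EMP2, a tetraspan membrane protein, bears on gene expression of RPE cells with and without hypoxia. It compared 4 lines, each with 3 libraries in normoxia and 3 in hypoxia. WT was the unmodified line, VC carried a control construct by stable retroviral transduction, OE carried an EMP2 construct by the same route, and KD had EMP2 knocked down with a lentiviral shRNA. The EMP2 knock down clone was not named in the sample labels, no library of an shRNA control line was analysed here, and the OE libraries were named OE2 in sets 1 and 2 and OE1 in set 3. All cells were kept in normoxia for 2 weeks, and the hypoxia groups then spent 4 h in 0.5% oxygen by the labels, while the published methods allow a shorter exposure. The labels do not say whether replicates came from separate cultures, so the p-values below reflect variation among libraries that could be purely technical.

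Chemokines are small secreted proteins that draw leukocytes along a gradient through G protein-coupled receptors. CXCL8, CXCL1, CXCL2 and CXCL3 act mainly on neutrophils, CCL2 and CCL7 mainly on monocytes, and CXCL12 acts through CXCR4. IL1B is a cytokine that starts a cascade through IL1R1 and NF-kappaB, IL6 is one of its downstream cytokines, and PTX3 is a secreted pattern recognition protein of the long pentraxin family that interacts with complement. RPE cells are a known source of CXCL8, CCL2 and IL6 in the eye.

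Libraries held 10796813 to 19779450 counts, with a median of 15992615. Levels are given as counts per 1000000 (CPM) of the library size scaled by the trimmed mean of M values (TMM), and the limit that a count of 0 allows (3 counts) was 0.150 to 0.252 CPM in a library. OE hypoxia replicate 1 stood apart, with 64.9% of its uniquely mapped reads counted to genes against 90.0 to 91.5% in the other 23 libraries, and it was left out in an alternative. EMP2 was at 54.6 ± 0.920 CPM (SD, n = 3) in WT, 50.8 ± 1.34 in VC, 586 ± 52.0 in OE and 12.2 ± 0.910 in KD cells in normoxia, in the order of the labels. All 14 RPE markers examined had counts, among them EFEMP1, MITF and OTX2, although RPE65 reached 1.51 CPM at most. The summed level of these markers in normoxia was 5204 to 5526 CPM in WT and 1582 to 1680 CPM in VC cells. It was 3054 to 3361 CPM in OE and 3496 to 3594 CPM in KD cells. EFEMP1, with 977311 counts over the 24 libraries and up to 4608 CPM, held the most counts of the 14. LAMP2 came next with 138418 counts. The sum therefore mostly follows EFEMP1 and is no level of the 14 markers alike. Against WT, VC cells had 3 markers higher and 9 lower, beside 35.8% of all genes. OE cells had 2 higher and 8 lower, beside 19.7%, and KD cells 3 higher and 7 lower, beside 16.3%. Each modified line thus differed from WT beyond the members, in both directions. Among 13 leukocyte markers, CD3D, CD3E, MS4A1 and NKG7 had 0 counts in all 24 libraries and PTPRC had 9 counts in all, while CSF1R had 1868, HLA-DRA 477, CD14 341, ITGAM 152 and CD68 98. Of the 6 leukocyte markers tested, 3 were higher (CD14, HLA-DRA and ITGAM) and 1 was lower (CSF1R) in VC than in WT cells in normoxia, beside 35.8% of all genes.

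The promoters of 9 members were found in RefSeq (GRCh38.p14), and CCL2 was not among them. The 160 bases before the start site are printed for the 5 members that share a match to the NF-kappaB letters GGANTTTCC, which is in capitals, because 4 of them are CXC chemokines of 1 gene cluster.
CXCL8 (chr4:73740409-73740568, plus strand): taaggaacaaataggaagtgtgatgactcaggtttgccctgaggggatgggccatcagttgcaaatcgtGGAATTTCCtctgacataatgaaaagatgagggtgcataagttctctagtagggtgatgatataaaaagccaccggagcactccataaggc
CXCL1 (chr4:73869233-73869392, plus strand): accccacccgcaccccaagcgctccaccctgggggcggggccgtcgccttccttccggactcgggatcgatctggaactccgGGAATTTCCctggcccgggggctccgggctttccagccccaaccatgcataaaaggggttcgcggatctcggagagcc
CXCL2 (chr4:74099196-74099355, minus strand): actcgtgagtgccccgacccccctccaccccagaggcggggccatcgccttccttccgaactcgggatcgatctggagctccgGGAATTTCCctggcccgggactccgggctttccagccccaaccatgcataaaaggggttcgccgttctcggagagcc
CXCL3 (chr4:74038690-74038849, minus strand): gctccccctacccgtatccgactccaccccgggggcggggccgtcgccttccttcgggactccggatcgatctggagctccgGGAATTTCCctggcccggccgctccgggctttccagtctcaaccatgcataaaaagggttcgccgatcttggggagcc
IL6 (chr7:22727040-22727199, plus strand): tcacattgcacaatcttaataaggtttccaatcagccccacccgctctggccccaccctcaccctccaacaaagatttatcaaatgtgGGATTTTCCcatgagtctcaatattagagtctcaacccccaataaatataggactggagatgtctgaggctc
The windows of CXCL1, CXCL2 and CXCL3 are near copies of each other, with the letters at bases -78 to -70, -77 to -69 and -78 to -70 from the start site. In CXCL8 they lie at -91 to -83 and in IL6 at -72 to -64. Searched on both strands over the 250 bases before the start, these letters were in 5 of 9 members and in 1.45% of 35116 promoters. The AP-1 letters TGANTCA were in CXCL8 and CCL7, 2 of 9 members, and in 6.57% of promoters, with no overlap with the NF-kappaB letters in CXCL8. The HIF letters ACGTG were in 0 of 9 members and in 18.5% of promoters. A match of letters is a description of the window and was not tested as a binding site. Only these letters were searched, so a member without them can hold another form of the motif.

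**Figure D1:**
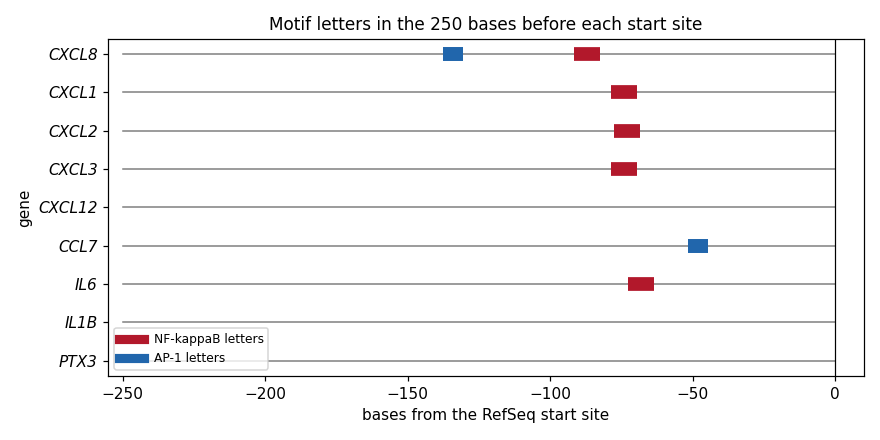
Position of the NF-kappaB letters (red) and AP-1 letters (blue) in the 250 bases before the RefSeq start site of 9 members, in bases from that site. The NF-kappaB letters lie between -91 and -64 in 5 members, and CXCL12, IL1B and PTX3 hold neither of these exact sets of letters. Other forms of the motifs were not searched.

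Per kilobase of annotated exon, the members spanned several orders of magnitude in WT cells in normoxia. PTX3 was highest at 127 ± 0.728 CPM per kb (SD, n = 3), followed by CCL2 at 83.0 ± 8.37 and CXCL8 at 58.5 ± 5.66. IL6 at 3.09 ± 0.253 and CXCL1 at 2.69 ± 0.412 were within the spread of each other, and CXCL3 at 1.26 ± 0.120, IL1B at 0.808 ± 0.120 and CCL7 at 0.429 ± 0.156 came next. CXCL2 had 1 count in 1 of these libraries. The order was not the same in every line, since IL1B at 3.95 ± 0.467 CPM per kb was above IL6 at 1.02 ± 0.131 in VC cells, and CCL7 at 8.74 ± 0.186 was above CXCL8 at 2.20 ± 0.127 in KD cells.

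**Figure D2:**
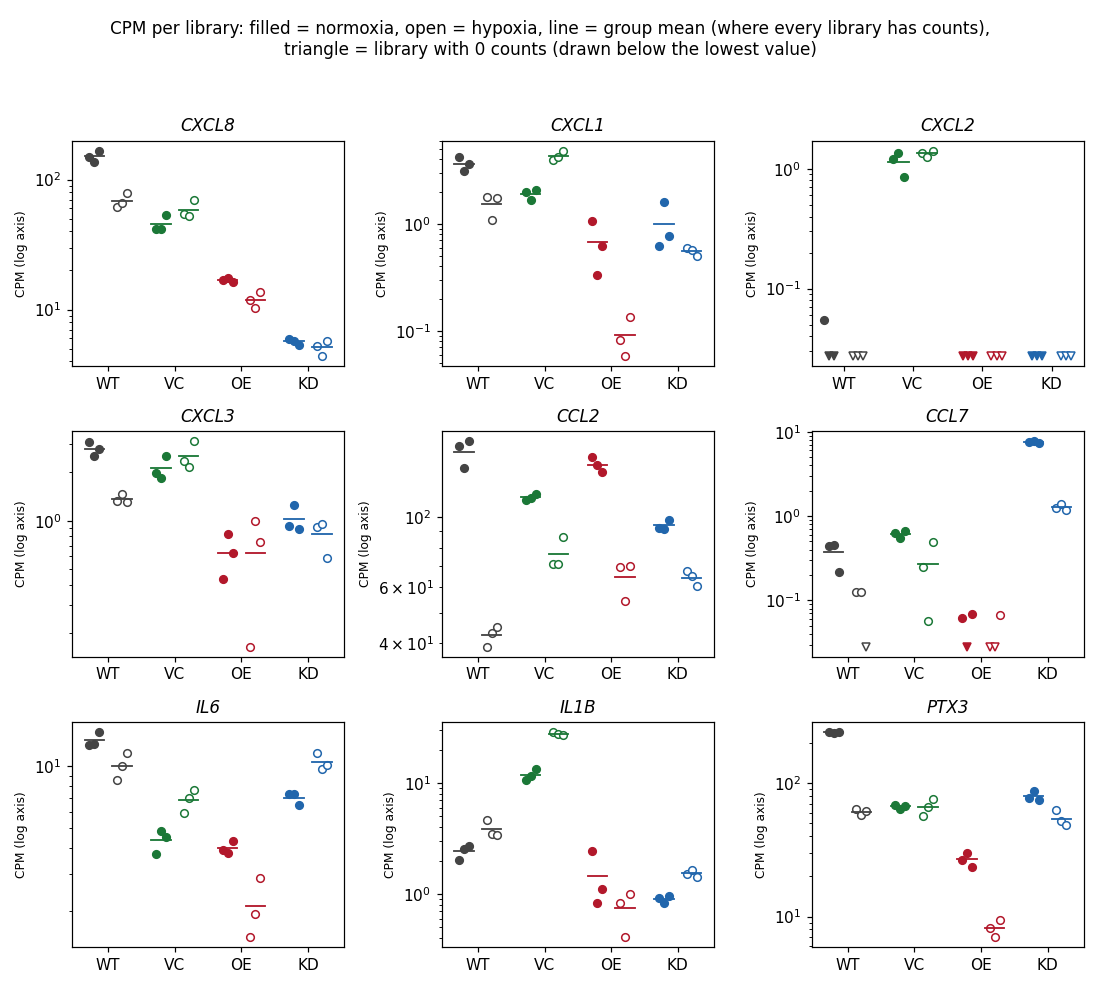
CPM of 9 members in each of the 24 libraries on log axes, with normoxia as filled and hypoxia as open circles and lines at the means of groups in which every library had counts. PTX3 and CXCL8 were highest in WT cells in normoxia, IL1B and CXCL2 in VC cells, and CCL7 in KD cells in normoxia.

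Compared with WT in normoxia, CXCL8, CXCL1, IL6 and PTX3 were lower in all 3 modified lines, the vector control included. In OE cells 0 members were higher and 6 were lower at an edgeR adjusted p under 0.01, where 19.7% of all genes tested passed. In KD cells 1 member (CCL7) was higher and 7 were lower, beside 16.3% of all genes. In VC cells 2 members (IL1B and CXCL2) were higher and 5 were lower, beside 35.8% of all genes. These comparisons share the 3 WT libraries. OE cells set against VC cells had 1 member (CCL2) higher and 7 lower, beside 33.5% of all genes. The median log2 fold change of the 9 tested members was -2.13 in OE against WT, -1.44 in KD against WT (-1.42 with genes at 0 in a group set to their bound), -0.48 in VC against WT and -1.50 in OE against VC, where the medians of all genes lay within 0.05 of 0. CXCL2 passed the count minimum only through the VC libraries in which it is high, so these counts and medians describe the genes and are no test of the group.

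In hypoxia the lines differed in another way. OE cells had 1 member (CCL2) higher and 5 lower than WT, beside 26.6% of all genes, and 0 higher and 8 lower than VC, beside 38.2% of all genes. KD cells had 2 members (CCL2 and CCL7) higher and 3 lower than WT (CXCL8, CXCL1 and IL1B), beside 18.2% of all genes. VC cells had 4 members higher (CXCL1, CXCL2, CCL2 and IL1B) and 1 lower (IL6) than WT, beside 39.9% of all genes. Median log2 fold changes were -2.24 in OE against WT, -3.01 in OE against VC, -0.17 in KD against WT and 0.89 in VC against WT. The limit given above for CXCL2 holds for these counts and medians too.

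**Figure D3:**
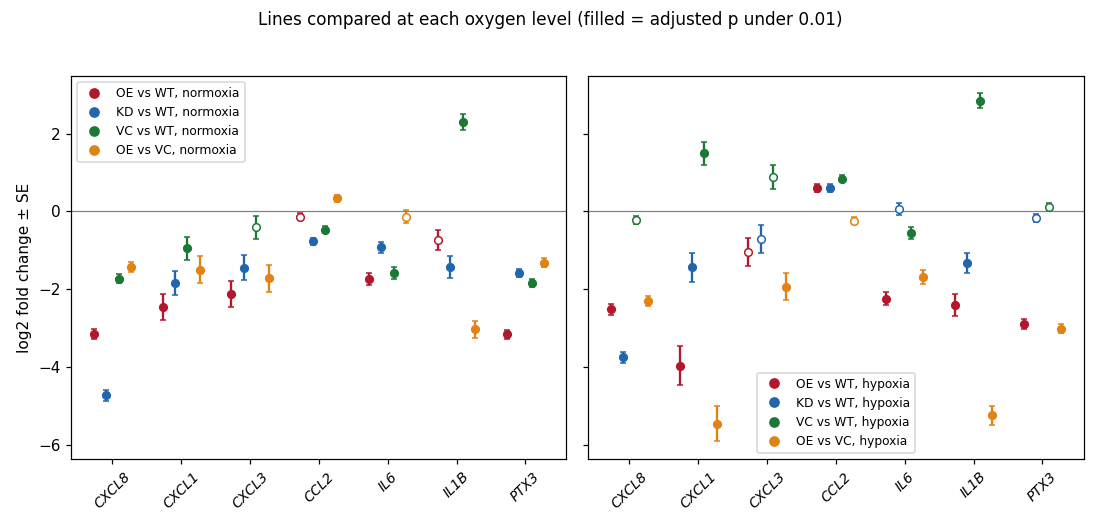
Log2 fold change with its standard error for 7 members in 4 comparisons of lines, in normoxia (left) and in hypoxia (right), with filled circles for an adjusted p under 0.01. CXCL8 lay below 0 in OE and KD against WT at both oxygen levels, and IL1B lay above 0 only in VC against WT, at 2.29 and 2.84.

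The members called in hypoxia against normoxia were not the same in every line, although CCL2 fell in all 4. A call in 1 line and none in another is not by itself a difference between lines. In WT cells 0 members rose and 4 fell (CXCL8, CXCL1, CCL2 and PTX3), beside 21.1% of all genes. In VC cells 3 rose (CXCL1, IL6 and IL1B) and 1 fell (CCL2), beside 21% of all genes. In OE cells 0 rose and 5 fell (CXCL8, CXCL1, CCL2, IL6 and PTX3), beside 13.9% of all genes. In KD cells 1 rose (IL6) and 3 fell (CCL2, CCL7 and PTX3), beside 19.1% of all genes. Median log2 fold changes were -1.26 in WT (-1.15 with genes at 0 in a group set to their bound), 0.27 in VC, -0.92 in OE and -0.30 in KD cells.

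The differences between these responses were tested as interaction terms. The response of KD cells was above that of WT cells in 4 members (CXCL8, CCL2, IL6 and PTX3) and below it in 0, while 0.985% of all genes passed. The response of OE cells against WT cells was above in 1 member (CCL2) and below in 1 (IL1B), beside 6.18% of all genes, and against VC cells it was above in 0 and below in 6, beside 5.13% of all genes. The response of VC cells was above that of WT cells in 5 members (CXCL8, CXCL1, CCL2, IL6 and PTX3) and below in 0, beside 8.02% of all genes. This last comparison was added after values had been seen.

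**Figure D4:**
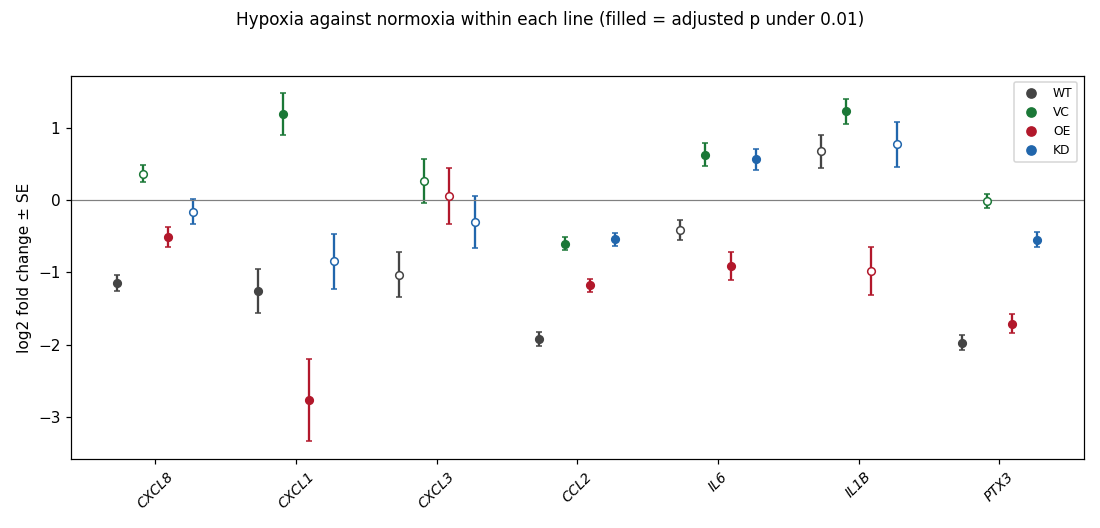
Log2 fold change of hypoxia against normoxia with its standard error for 7 members in each of 4 lines, with filled circles for an adjusted p under 0.01. CCL2 fell in all 4 lines, whereas PTX3 fell by 1.97 in WT and by 1.71 in OE cells and lay at -0.01 in VC cells.

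CXCL8 (chr4:73740519-73743716 in GENCODE coordinates, GRCh38), the main neutrophil chemokine of human epithelia, was highest in WT cells in normoxia and lowest in KD cells. The 3 WT libraries had 150.4, 137.4 and 166.6 CPM in normoxia and 61.2, 66.0 and 78.3 CPM in hypoxia. The VC libraries had 41.5, 41.7 and 53.6 CPM in normoxia and 54.3, 52.4 and 69.8 CPM in hypoxia. Each VC library in normoxia was thus below each WT library, while in hypoxia the ranges overlapped. The OE libraries had 17.0, 17.6 and 16.4 CPM in normoxia and 11.9, 10.3 and 13.6 CPM in hypoxia. The KD libraries had 5.98, 5.76 and 5.33 CPM in normoxia and 5.26, 4.41 and 5.71 CPM in hypoxia. At both oxygen levels every OE library was below every VC library and every KD library was below every OE library. Against WT in normoxia the log2 fold change was -3.15 ± 0.12 (SE) in OE cells (edgeR adjusted p = 8.15e-18). It was -4.73 ± 0.14 in KD cells (edgeR adjusted p = 3.38e-20) and -1.73 ± 0.11 in VC cells (edgeR adjusted p = 3.48e-13). OE cells were also below VC cells, by -1.42 ± 0.12 in normoxia (edgeR adjusted p = 1.23e-10) and by -2.30 ± 0.13 in hypoxia (edgeR adjusted p = 7.84e-15).

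Hypoxia lowered CXCL8 in WT cells, with a log2 fold change of -1.15 ± 0.11 (edgeR adjusted p = 3.71e-09). In KD cells the value was -0.16 ± 0.17 (edgeR adjusted p = 0.583). In VC cells it was 0.37 ± 0.11 (edgeR adjusted p = 0.0154). The latter passed with the replicate number as a block (0.37, edgeR adjusted p = 0.00122) and without VC normoxia replicate 3 (0.51, edgeR adjusted p = 0.00245) or VC hypoxia replicate 2 (0.45, edgeR adjusted p = 0.00867). The response was 1.51 ± 0.16 higher on the log2 scale in VC than in WT cells (edgeR adjusted p = 1.02e-07). It was lower in OE than in VC cells, with a difference of -0.88 ± 0.18 (edgeR adjusted p = 0.00129). The fall of -0.51 ± 0.14 in OE cells (edgeR adjusted p = 0.00671) lost its call without any 1 of OE normoxia replicates 1, 2 and 3 or OE hypoxia replicates 1 and 2, with log2 fold changes of -0.51, -0.47, -0.51, -0.51 and -0.41 and adjusted p-values of 0.021 to 0.047. The difference of 0.98 ± 0.21 between KD and WT cells (edgeR adjusted p = 0.00671) lost its call without 11 of the 12 libraries, all but WT hypoxia replicate 3, with values of 0.86 to 1.07 and adjusted p-values of up to 0.0639. The difference between OE and WT cells was 0.63 ± 0.18 (edgeR adjusted p = 0.0174). It passed without WT hypoxia replicate 3 (0.76, edgeR adjusted p = 0.00523) or OE hypoxia replicate 2 (0.74, edgeR adjusted p = 0.00755), and with DESeq2 (0.65, adjusted p = 0.00776).

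CXCL1, a neutrophil chemokine of the same cluster (chr4:73869393-73871308), was low throughout. WT libraries had 4.22, 3.10 and 3.66 CPM in normoxia and 1.77, 1.08 and 1.74 CPM in hypoxia, a log2 fold change of -1.26 ± 0.30 (edgeR adjusted p = 0.0016). VC libraries had 1.98, 1.65 and 2.05 CPM in normoxia and 3.92, 4.20 and 4.82 CPM in hypoxia, a rise of 1.19 ± 0.29 (edgeR adjusted p = 0.00206). WT and VC cells therefore moved in opposite directions with no overlap of the oxygen groups in either, and their difference was 2.44 ± 0.42 (edgeR adjusted p = 1.04e-04). OE libraries had 17, 6 and 9 counts in normoxia and 1, 1 and 2 counts in hypoxia, a log2 fold change of -2.77 ± 0.57 (edgeR adjusted p = 5.01e-04) that rests on 36 counts. KD libraries had 0.616, 1.61 and 0.762 CPM in normoxia and 0.591, 0.575 and 0.504 CPM in hypoxia, and their difference of -0.85 ± 0.38 did not pass (edgeR adjusted p = 0.113). OE and KD cells were below WT in normoxia by log2 values of -2.45 ± 0.33 (edgeR adjusted p = 6.32e-07) and -1.84 ± 0.31 (edgeR adjusted p = 2.81e-05).

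Several calls of CXCL1 lay near the threshold. VC against WT in normoxia was -0.95 ± 0.29 (edgeR adjusted p = 0.00827) and lost its call without any library but WT normoxia replicate 2 (-0.83 to -1.03, adjusted p up to 0.0482) and with the DESeq2 size factors (-0.92, edgeR adjusted p = 0.0103). KD against WT in hypoxia was -1.44 ± 0.37 (edgeR adjusted p = 0.00371) and lost it without any library but WT hypoxia replicate 2 (-1.31 to -1.47, adjusted p up to 0.0196). The fall in WT cells lost its call without WT normoxia replicate 1 (-1.14, edgeR adjusted p = 0.0131) or WT hypoxia replicate 2 (-1.05, edgeR adjusted p = 0.0199). The rise in VC cells lost it without VC normoxia replicate 2 (1.10, edgeR adjusted p = 0.0168) or VC hypoxia replicate 3 (1.10, edgeR adjusted p = 0.0133), and the fall in OE cells lost it without OE normoxia replicate 1 (-2.27, edgeR adjusted p = 0.0106). OE against VC in normoxia was -1.50 ± 0.35 (edgeR adjusted p = 6.56e-04), and lost its call without OE normoxia replicate 2 (-1.14, edgeR adjusted p = 0.0115). In hypoxia OE cells lay below VC cells by a log2 value of -5.45 ± 0.46 (edgeR adjusted p = 1.94e-11), with 4 counts in OE and 205 in VC cells.

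CXCL2 (chr4:74097040-74099196), a close homolog of CXCL1, was counted almost only in VC cells. VC libraries had 19, 27 and 13 counts in normoxia and 22, 22 and 20 counts in hypoxia, 0.859 to 1.42 CPM. WT normoxia replicate 1 had 1 count, and the other 17 libraries of WT, OE and KD cells had 0. VC against WT in normoxia (59 against 1 counts) gave a ratio of 60.3 with a 95% counting interval of 10.4 to 2421 (edgeR adjusted p = 1.04e-05). The gene passed the count minimum only through the VC libraries, so this p-value is a description and no independent test. CXCL2 was at least 20.2-fold higher in VC than in WT cells in hypoxia and at least 18.8-fold and 19.7-fold higher in VC than in OE cells in normoxia and hypoxia, with the floor of 3 counts taken over the group of 3 libraries. Of the 50-base windows of its transcript, 10.1% were shared with CXCL1 or CXCL3, so some reads could not be told apart, and their part in the CXCL2 counts was not tested.

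CXCL3 (chr4:74036589-74038807), another neutrophil chemokine of the cluster, had 39 to 56 counts per WT library in normoxia and 18 to 23 in hypoxia. The WT libraries lay at 2.54 to 3.07 CPM in normoxia and at 1.31 to 1.46 CPM in hypoxia, without overlap. The log2 fold change of -1.03 ± 0.31 narrowly missed the threshold (edgeR adjusted p = 0.0113) and passed with the replicate block (-1.04, edgeR adjusted p = 0.00968). In normoxia OE cells were below WT cells (-2.13 ± 0.34, edgeR adjusted p = 8.63e-06) and below VC cells (-1.72 ± 0.34, edgeR adjusted p = 1.20e-04). KD cells were below WT cells (-1.44 ± 0.32, edgeR adjusted p = 7.75e-04). In hypoxia the OE libraries had 2, 17 and 11 counts, and OE against VC was -1.93 ± 0.34 (edgeR adjusted p = 2.14e-05). OE against WT in hypoxia was -1.04 ± 0.36 (edgeR adjusted p = 0.0235) and passed without OE hypoxia replicate 2, which had 17 counts (-1.52, edgeR adjusted p = 0.0047). VC cells lay between 1.86 and 2.51 CPM in normoxia and between 2.16 and 3.12 CPM in hypoxia, and VC against WT passed at neither oxygen level (-0.41 ± 0.30 and 0.89 ± 0.31, edgeR adjusted p = 0.288 and 0.0195).

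CXCL12 (chr10:44370165-44386493), which guides CXCR4-bearing cells, had 0 counts in all 24 libraries, so no level was detectable at this depth. Its 2 receptors were counted. CXCR4, the signalling receptor, rose in hypoxia from 9.89 ± 0.557 to 87.2 ± 3.48 CPM in WT cells, a log2 fold change of 3.14 ± 0.09 (edgeR adjusted p = 5.72e-21). In OE cells it stood at 6.51 ± 0.779 and 9.12 ± 0.681 CPM (0.50 ± 0.11, edgeR adjusted p = 0.00122). In VC cells it stood at 7.98 ± 0.187 and 26.4 ± 2.42 CPM (1.72 ± 0.10, edgeR adjusted p = 2.03e-14). In KD cells it stood at 16.9 ± 1.17 and 62.1 ± 3.91 CPM (1.87 ± 0.09, edgeR adjusted p = 3.10e-16). ACKR3, the scavenging receptor, rose from 33.1 ± 2.03 to 99.9 ± 4.40 CPM in WT cells (1.59 ± 0.14, edgeR adjusted p = 1.07e-09). It rose from 19.7 ± 2.84 to 64.2 ± 2.29 CPM in KD cells (1.70 ± 0.14, edgeR adjusted p = 9.10e-10). In VC cells ACKR3 fell from 23.2 ± 1.39 to 12.6 ± 1.12 CPM (-0.89 ± 0.15, edgeR adjusted p = 5.25e-05). The neutrophil chemokine receptors CXCR1 and CXCR2 had 2 and 0 counts in all 24 libraries, and the CCL2 receptor CCR2 had 1.

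CCL2 (chr17:34255274-34257208), the monocyte chemoattractant, was among the 3 most abundant members per kilobase in every line and fell in hypoxia in all 4. WT libraries had 166.7, 142.2 and 172.8 CPM in normoxia and 39.1, 43.2 and 44.95 CPM in hypoxia, the largest fall (-1.92 ± 0.10, edgeR adjusted p = 6.76e-16). OE libraries had 154.1, 146.0 and 138.0 CPM in normoxia and 69.4, 54.3 and 70.0 CPM in hypoxia (-1.18 ± 0.09, edgeR adjusted p = 8.95e-11). In normoxia OE and WT libraries overlapped (-0.14 ± 0.09, edgeR adjusted p = 0.319), unlike the other abundant members CXCL8 and PTX3. VC libraries had 113.3, 114.5 and 118.4 CPM in normoxia and 70.9, 70.9 and 86.7 CPM in hypoxia (-0.60 ± 0.09, edgeR adjusted p = 5.66e-06). KD libraries had 92.5, 91.4 and 98.1 CPM in normoxia and 67.35, 65.4 and 60.6 CPM in hypoxia (-0.54 ± 0.09, edgeR adjusted p = 3.17e-05). The order of the lines turned with oxygen. KD and VC cells were below WT in normoxia (-0.77 ± 0.09 and -0.48 ± 0.09, edgeR adjusted p = 7.64e-08 and 5.76e-05). OE, KD and VC cells were each above WT in hypoxia (0.60 ± 0.10, 0.61 ± 0.10 and 0.84 ± 0.10, edgeR adjusted p = 6.13e-06, 1.01e-05 and 7.55e-09).

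The difference of the CCL2 response from that of WT cells was 0.74 ± 0.13 in OE (edgeR adjusted p = 2.11e-04), 1.38 ± 0.13 in KD (edgeR adjusted p = 1.40e-07) and 1.32 ± 0.13 in VC cells (edgeR adjusted p = 1.84e-08), which share the WT libraries. Against VC cells, OE cells were higher in CCL2 in normoxia by 0.34 ± 0.09 on the log2 scale (edgeR adjusted p = 0.00271), a call lost without VC normoxia replicate 1 (0.33), VC normoxia replicate 2 (0.33) or OE normoxia replicate 1 (0.30), with adjusted p-values of 0.0135 to 0.0205. Their response difference of -0.58 ± 0.13 (edgeR adjusted p = 0.00322) lost its call without any 1 of VC normoxia replicates 1 and 2, VC hypoxia replicate 3 and OE normoxia replicates 1 and 2 (-0.48 to -0.58, adjusted p 0.0103 to 0.0196).

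CCL7 (chr17:34270221-34272242), another monocyte chemoattractant, was the 1 member raised in KD cells at both oxygen levels beside low levels elsewhere. KD libraries had 7.58, 7.68 and 7.37 CPM in normoxia and 1.25, 1.40 and 1.18 CPM in hypoxia. WT libraries had 8, 9 and 3 counts in normoxia and 2, 2 and 0 in hypoxia, so every KD library was above every WT library. The log2 fold change of KD against WT was 4.28 ± 0.40 in normoxia (edgeR adjusted p = 6.37e-10) and 3.75 ± 0.56 in hypoxia (edgeR adjusted p = 4.44e-06), the latter over 4 counts in WT. Hypoxia lowered CCL7 in KD cells by a log2 fold change of -2.55 ± 0.35 (edgeR adjusted p = 9.18e-07). In WT cells the value was -2.02 ± 0.65 and did not pass (edgeR adjusted p = 0.0187). The response difference between KD and WT cells was -0.53 ± 1.01 (edgeR adjusted p = 0.991). CCL7 and CCL2 are neighbours on chromosome 17 and share no 50-base window of their transcripts, and CCL2 was lower in KD than in WT cells in normoxia where CCL7 was higher.

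In OE cells CCL7 had 2 counts in normoxia and 1 in hypoxia over 3 libraries each. WT against OE cells in normoxia (20 against 2 counts) gave a ratio of 9.37 with a 95% counting interval of 2.28 to 82.7. The call (edgeR adjusted p = 0.00225) was lost with DESeq2 (adjusted p = 0.0131) and without WT normoxia replicate 2 (-2.82, edgeR adjusted p = 0.0107) or OE normoxia replicate 2 (-2.41, edgeR adjusted p = 0.0215). VC against OE cells gave a ratio of 14.8 (3.77 to 127.9) in normoxia (edgeR adjusted p = 5.29e-05). In hypoxia the ratio was 11.1 (1.64 to 474.3), with overlapping libraries. Its call (edgeR adjusted p = 0.00548) was lost with DESeq2 (adjusted p = 0.0172) and without any 1 of VC hypoxia replicates 1 and 3 and OE hypoxia replicates 1 and 2, with log2 values of -3.13, -2.37, -2.74 and -2.55 and adjusted p-values of 0.0114 to 0.0881.

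IL6 (chr7:22725884-22732002), a cytokine of the acute phase response, rose in hypoxia in VC and KD cells and fell in OE cells. WT libraries had 12.6, 12.9 and 14.6 CPM in normoxia and 8.53, 10.0 and 11.6 CPM in hypoxia, and the difference of -0.41 ± 0.14 did not pass (edgeR adjusted p = 0.0292). VC libraries had 3.77, 4.86 and 4.56 CPM in normoxia and 5.91, 6.98 and 7.65 CPM in hypoxia. KD libraries had 7.34, 7.32 and 6.48 CPM in normoxia and 11.6, 9.64 and 10.1 CPM in hypoxia. In both lines every hypoxia library was above every normoxia library, with rises of 0.63 ± 0.16 in VC (edgeR adjusted p = 0.00292) and 0.56 ± 0.15 in KD cells (edgeR adjusted p = 0.00438). OE libraries had 3.91, 3.81 and 4.32 CPM in normoxia and 1.49, 1.93 and 2.87 CPM in hypoxia, a fall of -0.92 ± 0.19 (edgeR adjusted p = 6.43e-04). In normoxia IL6 was lower than in WT cells in OE (-1.73 ± 0.16, edgeR adjusted p = 1.97e-10), VC (-1.59 ± 0.15, edgeR adjusted p = 3.75e-10) and KD cells (-0.92 ± 0.15, edgeR adjusted p = 1.13e-05), and OE and VC libraries overlapped (-0.14 ± 0.17, edgeR adjusted p = 0.567).

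In hypoxia IL6 in OE cells was below WT (-2.24 ± 0.18, edgeR adjusted p = 8.89e-12) and below VC cells (-1.69 ± 0.18, edgeR adjusted p = 3.49e-09), while KD and WT libraries overlapped (0.06 ± 0.15, edgeR adjusted p = 0.874). The IL6 response was 1.04 ± 0.22 higher in VC than in WT cells (edgeR adjusted p = 9.17e-04). It was lower in OE than in VC cells, with a difference of -1.55 ± 0.25 (edgeR adjusted p = 7.24e-05). Between OE and WT cells the IL6 response difference of -0.50 ± 0.24 did not pass (edgeR adjusted p = 0.221). The difference of 0.98 ± 0.21 between KD and WT cells (edgeR adjusted p = 0.00642) lost its call without 11 of the 12 libraries, all but WT hypoxia replicate 3 (0.83 to 1.02, adjusted p up to 0.0468). The fall in OE cells lost its call when only the OE libraries were fitted (-0.91, edgeR adjusted p = 0.0757) and without all libraries numbered 1 (-0.77, edgeR adjusted p = 0.0101) or all numbered 2 (-0.86, edgeR adjusted p = 0.0434). The rise in VC cells lost its call without VC normoxia replicate 1 (0.54), VC hypoxia replicate 2 (0.61) or VC hypoxia replicate 3 (0.55), with adjusted p-values of 0.0133 to 0.026. The rise in KD cells lost it without any library but KD hypoxia replicate 2 (0.46 to 0.59, adjusted p 0.0113 to 0.0514). VC against WT in hypoxia was -0.55 ± 0.15 (edgeR adjusted p = 0.00281), lost without WT hypoxia replicate 3 (-0.43, edgeR adjusted p = 0.0342) or VC hypoxia replicate 1 (-0.46, edgeR adjusted p = 0.0265). IL6 shares up to 375 exon bases with IL6-AS1 on the other strand. Whether strand was used in the counting is not given in the sources used here.

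The receptors of IL6 also differed between lines. IL6R, its ligand-binding chain, was at 1.75 ± 0.291 CPM in WT and 1.48 ± 0.234 in OE cells in normoxia, but at 8.89 ± 0.455 in KD (log2 fold change against WT 2.36 ± 0.16, edgeR adjusted p = 1.24e-12) and 18.4 ± 1.64 in VC cells (3.41 ± 0.16, edgeR adjusted p = 1.72e-17). IL6ST, the shared signalling chain gp130, was lower in OE than in WT cells, at 264 ± 10.3 against 460.2 ± 36.9 CPM (-0.80 ± 0.08, edgeR adjusted p = 9.57e-10). It was also lower in VC cells, at 344.8 CPM (-0.42 ± 0.08, edgeR adjusted p = 4.03e-05). The IL-6 family had 12 tested ligands and receptors. Against WT in normoxia, OE cells had 2 of them higher and 4 lower, beside 19.7% of all genes, and KD cells had 2 higher and 5 lower, beside 16.3% of all genes. IL11 fell from 8.08 CPM in WT to 2.21 in OE and 0.517 in KD cells, with log2 fold changes of -1.86 ± 0.30 (edgeR adjusted p = 2.80e-05) and -3.88 ± 0.37 (edgeR adjusted p = 1.19e-08). CTF1, the cytokine cardiotrophin 1, was at 10.5 CPM in WT and 0.217 in KD cells (-5.56 ± 0.30, edgeR adjusted p = 4.47e-15). In OE cells CLCF1, another ligand of the family, was higher (40.6 against 19.7 CPM, 1.05 ± 0.13, edgeR adjusted p = 3.58e-07). The receptor LIFR was lower there (4.72 against 9.25 CPM, -0.99 ± 0.13, edgeR adjusted p = 2.51e-07).

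IL1B (chr2:112829751-112836816), the secreted interleukin 1 beta, set the VC line apart. VC libraries had 10.7, 11.6 and 13.4 CPM in normoxia and 28.8, 27.8 and 27.0 CPM in hypoxia, a rise of 1.23 ± 0.17 (edgeR adjusted p = 1.09e-06). WT libraries had 2.03, 2.54 and 2.72 CPM in normoxia and 4.68, 3.50 and 3.41 CPM in hypoxia (0.68 ± 0.23, edgeR adjusted p = 0.0227). Every VC library was above every library of the other lines, and VC against WT was 2.29 ± 0.20 in normoxia (edgeR adjusted p = 7.24e-11) and 2.84 ± 0.19 in hypoxia (edgeR adjusted p = 1.05e-13). OE libraries had 2.42, 0.827 and 1.12 CPM in normoxia and 0.826, 0.409 and 1.00 CPM in hypoxia. KD libraries had 0.925, 0.830 and 0.952 CPM in normoxia and 1.51, 1.66 and 1.43 CPM in hypoxia. KD cells were below WT at both oxygen levels (-1.42 ± 0.28 and -1.33 ± 0.25, edgeR adjusted p = 2.14e-04 and 1.16e-04). OE cells were below WT in hypoxia (-2.40 ± 0.29, edgeR adjusted p = 4.28e-08). OE against VC was -3.03 ± 0.22 in normoxia (edgeR adjusted p = 1.13e-12) and -5.24 ± 0.25 in hypoxia (edgeR adjusted p = 1.88e-17), the latter the largest fold among members with over 10 counts in both groups.

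OE normoxia replicate 1, at 2.42 CPM, stood above the other 2 OE libraries in normoxia for IL1B. OE against WT in normoxia was -0.74 ± 0.26 (edgeR adjusted p = 0.0327) and passed without it (-1.33, edgeR adjusted p = 1.87e-04). The response difference between OE and WT cells was -1.66 ± 0.40 (edgeR adjusted p = 0.00511), and it lost its call without OE normoxia replicate 1 (-1.07, edgeR adjusted p = 0.0731), WT normoxia replicate 1 (-1.54, edgeR adjusted p = 0.0161), WT hypoxia replicate 1 (-1.50, edgeR adjusted p = 0.0189) or OE hypoxia replicate 2 (-1.32, edgeR adjusted p = 0.0279). The fall in OE cells was -0.98 ± 0.33 (edgeR adjusted p = 0.0302) and passed without OE normoxia replicate 2 (-1.28, edgeR adjusted p = 0.00446). Between OE and VC cells the response difference was -2.21 ± 0.37 (edgeR adjusted p = 1.03e-04). The summed level of the 13 leukocyte markers was 11.9 to 14.1 CPM in VC, 14.1 to 15.9 in OE, 4.44 to 5.21 in WT and 1.09 to 1.23 in KD cells in normoxia. In VC cells it came mostly from CD14 at 4.55 ± 0.598 CPM, HLA-DRA at 4.29 ± 1.10 and ITGAM at 1.63 ± 0.429, which were at 0.0339, 0.147 and 0.0774 CPM in WT cells. CSF1R made up most of it in OE cells (14.3 ± 0.939 CPM) and WT cells (4.12 ± 0.369 CPM). CD14, HLA-DRA and ITGAM were thus higher in the line in which IL1B was higher, and their part in the IL1B difference was not tested. PTPRC, which marks all leukocytes, was at 0.128 CPM at most.

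The IL-1 receptor chains were low in OE cells. IL1R1 was at 4.92 ± 0.512 CPM in OE and 21.7 ± 1.90 CPM in WT cells in normoxia (-2.15 ± 0.12, edgeR adjusted p = 2.57e-15). Its partner IL1RAP was at 27.0 ± 1.32 and 108.4 ± 6.20 CPM (-2.01 ± 0.09, edgeR adjusted p = 5.26e-17). In KD cells they were at 20.7 ± 0.748 and 104.3 ± 4.19 CPM, and neither passed the test against WT. Of 13 tested genes of the IL-1 family, its receptors and processing, 1 was higher and 4 were lower in OE than in WT cells, beside 19.7% of all genes, and 3 higher and 3 lower in KD than in WT cells, beside 16.3% of all genes. The higher gene in OE cells was IL18, a cytokine processed by caspase 1 as IL1B is (154.7 against 49.2 CPM, 1.65 ± 0.08, edgeR adjusted p = 5.26e-17). In KD cells IL33, an alarmin, was higher (122.0 against 33.2 CPM, 1.88 ± 0.23, edgeR adjusted p = 5.81e-06), and the inflammasome genes CASP1 (12.6 against 26.9 CPM, -1.09 ± 0.11, edgeR adjusted p = 2.35e-09) and PYCARD (2.78 against 5.61 CPM, edgeR adjusted p = 4.93e-04) were lower.

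PTX3 (chr3:157436850-157443633) had the highest level per kilobase of all members in WT cells. WT libraries had 240.5, 237.8 and 239.5 CPM in normoxia and 63.8, 57.95 and 61.3 CPM in hypoxia, a fall of -1.97 ± 0.10 (edgeR adjusted p = 2.42e-15). VC libraries had 68.8, 63.6 and 67.7 CPM in normoxia and 56.1, 66.3 and 75.8 CPM in hypoxia (-0.01 ± 0.10, edgeR adjusted p = 0.975). The VC libraries in normoxia were far below the WT libraries in normoxia and close to those in hypoxia. OE libraries had 26.6, 30.0 and 23.6 CPM in normoxia and 8.26, 7.01 and 9.41 CPM in hypoxia (-1.71 ± 0.13, edgeR adjusted p = 2.32e-11). KD libraries had 77.5, 86.4 and 74.0 CPM in normoxia and 62.5, 51.8 and 48.2 CPM in hypoxia (-0.55 ± 0.10, edgeR adjusted p = 1.02e-04). Every OE library was below every library of the other lines at the same oxygen level, and OE cells in hypoxia held the lowest values of all groups. Against WT in normoxia the log2 fold change was -3.16 ± 0.11 in OE (edgeR adjusted p = 5.09e-20), -1.59 ± 0.10 in KD (edgeR adjusted p = 1.70e-13) and -1.84 ± 0.10 in VC cells (edgeR adjusted p = 1.60e-15).

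OE cells were also below VC cells in PTX3, by -1.32 ± 0.11 in normoxia (edgeR adjusted p = 1.20e-11) and -3.01 ± 0.12 in hypoxia (edgeR adjusted p = 7.94e-19). In hypoxia KD and VC libraries overlapped with WT (-0.17 ± 0.10 and 0.11 ± 0.10, edgeR adjusted p = 0.273 and 0.392). The PTX3 response was higher than that of WT cells by 1.42 ± 0.14 in KD (edgeR adjusted p = 3.00e-07) and 1.96 ± 0.14 in VC cells (edgeR adjusted p = 6.17e-11). OE and WT cells were 0.26 ± 0.16 apart (edgeR adjusted p = 0.377). OE against VC cells was -1.69 ± 0.16 (edgeR adjusted p = 1.61e-08). PTX3 shares 71 exon bases with VEPH1 on the other strand. Among 6 tested pentraxins and partners 0 were higher and 2 lower in OE than in WT cells in normoxia, beside 19.7% of all genes, and 0 higher and 1 lower in KD cells, where 16.7% of the list stood beside 16.3% of all genes. The 2 included the neuronal pentraxin receptor NPTXR at 99.2 against 412.7 CPM (-2.06 ± 0.09, edgeR adjusted p = 3.33e-17).

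Genes around the members were described from lists of NF-kappaB genes, receptor adaptors, decay regulators and other chemokines. The NF-kappaB list held subunits and feedback genes, and also SOD2, CSF2 and ICAM1, which are neither. Of its 20 tested genes, 1 was higher and 11 lower in OE than in WT cells in normoxia, beside 19.7% of all genes. The median log2 fold change was -0.68 (-0.63 with genes at 0 in a group set to their bound). In OE against VC cells 0 were higher and 15 lower, beside 33.5% of all genes. SOD2, the mitochondrial superoxide dismutase, was at 132 ± 9.51 CPM in OE and 602.7 ± 60.3 CPM in WT cells (-2.19 ± 0.10, edgeR adjusted p = 1.37e-17). TRAF1, a signalling adaptor, was at 10.1 and 65.2 CPM (-2.69 ± 0.10, edgeR adjusted p = 1.88e-19). The growth factor gene CSF2 was at 0.233 and 7.81 CPM (-5.06 ± 0.32, edgeR adjusted p = 5.87e-14). Against WT, KD cells had 0 of these genes higher and 9 lower, beside 16.3% of all genes, among them TRAF1 (20.4 CPM, -1.68 ± 0.09, edgeR adjusted p = 5.99e-15), the ubiquitin ligase BIRC3 (15.3 against 33.8 CPM, -1.14 ± 0.13, edgeR adjusted p = 7.96e-08) and the adhesion molecule ICAM1 (14.1 against 45.3 CPM, -1.68 ± 0.12, edgeR adjusted p = 9.45e-12).

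In the vector control ICAM1 was at 1765 ± 46.8 and 2081 ± 124 CPM without and with hypoxia, against 45.3 ± 2.11 and 49.6 ± 3.21 CPM in WT cells. This gene was picked for VC cells with its values known, and the list went both ways there in normoxia. Of the 20 NF-kappaB genes, 5 were higher and 6 lower in VC than in WT cells in normoxia, beside 35.8% of all genes, and 13 higher and 2 lower in hypoxia, beside 39.9% of all genes. Within lines, hypoxia raised 10 and lowered 1 of them in VC cells, beside 21% of all genes, and raised 1 and lowered 6 in WT cells, beside 21.1%. It raised 2 and lowered 3 in OE cells, beside 13.9% of all genes, and raised 7 and lowered 3 in KD cells, beside 19.1%.

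The list of Toll-like receptors and adaptors of IL-1 signalling had 18 tested genes. Against WT in normoxia, OE cells had 3 of them higher and 5 lower, beside 19.7% of all genes, and KD cells had 0 higher and 5 lower, which is 27.8% of the list beside 16.3% of all genes. TLR4, the lipopolysaccharide receptor, was at 63.9 CPM in WT, 15.98 in OE (-2.00 ± 0.08, edgeR adjusted p = 1.62e-18) and 50.6 in KD cells (-0.34 ± 0.07, edgeR adjusted p = 7.92e-04). The kinase gene IRAK2 was at 32.4 CPM in WT, 9.13 in OE (-1.82 ± 0.12, edgeR adjusted p = 8.46e-14) and 17.7 in KD cells (-0.87 ± 0.11, edgeR adjusted p = 2.01e-07). TLR3, the sensor of double-stranded RNA, was also lower in both, at 14.9, 4.96 and 9.25 CPM. Of 10 regulators of the decay of cytokine mRNAs, 1 was higher and 3 lower in OE cells, beside 19.7% of all genes, and 0 higher and 4 lower in KD cells, beside 16.3%. DUSP1, a phosphatase that shuts off stress kinases, went in opposite directions, at 89.4 CPM in WT, 209.7 in OE (1.23 ± 0.11, edgeR adjusted p = 3.85e-10) and 19.9 in KD cells (-2.17 ± 0.12, edgeR adjusted p = 3.12e-14). ZFP36L2 and ZFP36, which bind AU-rich elements and promote decay, were lower in KD than in WT cells, at 39.4 against 117.6 CPM and 5.94 against 10.4 CPM.

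Of the other chemokines, 5 CXC, CX3C or XC genes of 13 listed and 4 CC genes of 16 listed had enough counts to test. In VC cells in normoxia CXCL14 (11.6 against 0.111 CPM) and CXCL6 (0.406 CPM, with 0 counts in WT) were higher and CXCL16 was lower than in WT cells (16.7 against 29.7 CPM). These 3 are named after their values were seen, and 35.8% of all genes passed. With 0 counts in WT cells, the call of CXCL6 rests on VC libraries and is a description, no independent test. Of the 4 CC genes, 1 was higher and 1 lower in VC than in WT cells in normoxia. In OE cells 0 were higher and 1 lower, beside 19.7% of all genes, and in KD cells 0 higher and 2 lower, beside 16.3%. CCL20, a CC chemokine of mucosal epithelia, is also named after its values were seen. It was at 1.18 CPM in VC and 0.238 CPM in WT cells in normoxia. In hypoxia it was at 2.33 CPM in VC and 0.0696 CPM in WT cells, with 0 counts in OE cells. The WT value in hypoxia lay near the floor of 0.0662 CPM for that group.

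The genes most like each abundant member over the 24 libraries were named by Pearson's r of log2 CPM among 11129 genes with a mean of at least 5 CPM. The 24 points are 8 groups of 3 libraries and not independent, so r is a description. For PTX3 they were EPAS1 (r = 0.95), NMT2 (0.91) and RALGPS2 (0.90). EPAS1, the gene of HIF-2 alpha, was at 1069 CPM in WT, 486 in VC, 323 in OE and 619 in KD cells in normoxia. In hypoxia it was at 699, 477, 215 and 476 CPM in the same order. For CXCL8 they were PON2 (0.93), UGT8 (0.90) and GNAI2 (0.90). For CCL2 they were CCNL1 (0.93), AP5B1 (0.91) and MARS (0.91), which all had lower means in hypoxia in each line. For IL6 they were SDC1 (0.90), CPNE2 (0.90) and IL4R (0.90). SDC1, a cell surface proteoglycan, was at 133 CPM in WT, 33.0 in VC, 10.3 in OE and 107 in KD cells in normoxia.

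Without OE hypoxia replicate 1, the library that stood apart, 2 calls of members were lost, those of CXCL8 in OE hypoxia against normoxia (-0.51, edgeR adjusted p = 0.0437) and of CCL7 in OE against VC in hypoxia (-2.74, edgeR adjusted p = 0.0299). No other call of a member was lost or made without it. When only the libraries of a comparison were fitted, the falls in OE cells of CXCL8 (-0.48, edgeR adjusted p = 0.0513) and CXCL1 (-2.76, edgeR adjusted p = 0.0446) lost their calls, as did OE against VC in hypoxia for CXCL3 (-1.96, edgeR adjusted p = 0.0147) and CCL7 (-3.12, edgeR adjusted p = 0.0911). So did the response differences of IL1B between OE and WT cells (-1.63, edgeR adjusted p = 0.0796) and of CXCL8 (-0.86), CCL2 (-0.56) and IL1B (-2.20) between OE and VC cells, the latter with adjusted p-values of 0.0101 to 0.0381.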

How the data were processed

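The authors mapped 50-base single reads of rRNA-depleted total RNA with STAR to GRCh38 and deposited raw counts per gene, and per the labels their tools were bcl2fastq 2.17, STAR, Partek, edgeR and DESeq2 1.26.0. Whether the counting used strand is not given in the sources used here. A second deposited table of normalized counts was not used. The alignment report gave uniquely mapped reads. From the deposited counts, genes with at least 10 counts over the 24 libraries were fitted in edgeR 4.0.16 (R 4.3.3, TMM, quasi-likelihood F test, all 8 groups in 1 model), with Benjamini-Hochberg adjustment over 24873 genes and a threshold of 0.01. DESeq2 1.42.0, other filters, other scaling and left-out libraries were alternatives, and the fit was tested on simulated data. CPM is per 1000000 of the TMM-scaled library size. Intervals and floors cover counting error only, at 95% and 3 counts.

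The members and lists were chosen with earlier results of these data known. Named genes were all 10 members, EMP2, called receptors, up to 3 genes per list with the largest called change of OE or KD against WT in normoxia at 5 CPM or more, and 3 genes of highest correlation for CXCL8, IL6, CCL2 and PTX3. The other chemokines named for VC cells and the VC levels of ICAM1 were picked outside this rule. Same-numbered libraries deviated together in all 3 pairs (correlation over 0.1) in 5 of 12 comparisons, KD against WT in normoxia and hypoxia, OE against VC in normoxia, and hypoxia in WT and VC cells, with correlations of -0.098 to 0.341 over all 12. Replicates of a group differed beyond sampling noise (chi-square per degree of freedom 2.07 to 36.9 over 24 pairs). Exon lengths and positions are from GENCODE v44, promoters from RefSeq. The value of 1 leukocyte marker is not reported here.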

Additional observations from a re-analysis of the deposited data

Results flagged for a closer look

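The hypoxia responses of 2 lines differed for CXCL8, CXCL1, CCL2, IL6, IL1B and PTX3 by an interaction test (edgeR, adjusted p under 0.01). Of all genes, 0.985% (KD against WT) to 8.02% (VC against WT) passed in these comparisons. Each value below is a difference of log2 fold changes of hypoxia against normoxia. Between VC and WT cells, which were compared after values had been seen, CXCL8 differed by 1.51, CXCL1 by 2.44, CCL2 by 1.32, IL6 by 1.04 and PTX3 by 1.96, and these 5 values share the WT and VC libraries. Between KD and WT cells CXCL8 differed by 0.98, CCL2 by 1.38, IL6 by 0.98 and PTX3 by 1.42. Between OE and WT cells CCL2 differed by 0.74 and IL1B by -1.66. Between OE and VC cells CXCL8 differed by -0.88, CXCL1 by -3.96, CCL2 by -0.58, IL6 by -1.55, IL1B by -2.21 and PTX3 by -1.69. The value of CXCL1 in OE cells rests on 4 counts in hypoxia. When each library was left out in turn, the calls of CXCL8 and IL6 between KD and WT cells were each lost in 11 of 12 cases, that of IL1B between OE and WT cells in 4 and that of CCL2 between OE and VC cells in 5.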

How the results depend on the processing

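Of the member values, 130 kept direction and call with the DESeq2 size factors, 132 with edgeR's own expression filter, 128 with all genes of at least 1 count, 122 with DESeq2 and 117 when only the compared libraries were fitted, of up to 133 in each. At an adjusted p under 0.05, the count of members called in hypoxia against normoxia in WT cells was 8. With only the compared libraries it was 7 there, 2 in OE cells, and 1 and 3 for the response differences of OE against WT and OE against VC. The share of all genes passing was not taken in any alternative. These counts and those below therefore describe the settings and are no result about the members. Leaving out replicates or single libraries gave 5 to 7 members in OE, 6 to 8 in KD and 6 to 7 in VC against WT and 6 to 8 in OE against VC in normoxia. In hypoxia it gave 6 to 7, 4 to 5, 4 to 5 and 7 to 8. Hypoxia against normoxia called 3 to 4 members in WT, 2 to 5 in VC, 2 to 5 in OE and 2 to 4 in KD cells. Response differences called 0 to 3 in OE against WT, 2 to 4 in KD against WT, 3 to 6 in OE against VC and 4 to 5 in VC against WT. With the replicate block 3 further calls were made, of CXCL3 in hypoxia in WT (-1.04), CXCL8 in hypoxia in VC (0.37) and CXCL8 in the response difference of OE against WT (0.62), and no other call changed. Values that turned sign were all of uncalled members, and the cause was not tested. With only the compared libraries PTX3 in hypoxia in VC cells was 0.002. Without the libraries named OE1, CXCL3 in hypoxia in OE cells was -0.026 and CCL7 in the response differences was -0.23 against WT and -1.01 against VC. Leaving out replicates or single libraries, IL6 ranged from -0.24 to 0.0031 in OE against VC in normoxia and from -0.13 to 0.20 in KD against WT in hypoxia. PTX3 in hypoxia in VC cells ranged from -0.12 to 0.11, and CXCL3 in hypoxia in OE cells from -0.42 to 0.45. Response differences ranged from -0.63 to 2.28 for CCL7 in OE against WT, from -1.41 to 1.29 for CCL7 in OE against VC, from -0.17 to 1.41 for CCL7 in VC against WT, from -0.16 to 0.41 for IL1B in KD against WT and from -0.69 to 0.18 for CXCL3 in OE against VC.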
